A study of Mus musculus with 661 samples.

Results

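MSC-S are mesenchymal stromal cells with the surface protein Sca-1 that lie at the inner bone surface, the endosteum. Cells sorted as MSC-S from old mice were compared, gene by gene, with those sorted from young mice. Members were all cells whose label names this sorted population, whatever their cluster, which gave 59 old and 59 young cells of the 661 cells of the series. The study profiled mesenchymal and endothelial cells of endosteum and central marrow by plate-based single-cell RNA sequencing, to ask how the bone marrow niche changes with age. Mice were wild-type C57BL/6 animals of both sexes. They carried the CD45.2 allele (B6) or the CD45.1 allele (BoyJ), and which mouse gave a cell is not stated. Young mice were about 2 months old (6 to 12 weeks) and old mice about 24 months (at least 18 months). Mice were raised by the laboratory, apart from some old B6 mice that came from aging colonies and collaborators. Endosteal cells were released by collagenase from crushed leg, arm and pelvic bones, and MSC-S were sorted as Ter119-/CD45-/CD31-/Sca-1+/CD51+ cells, 1 cell per well.

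The study's figure legend gives 3 young and 4 old mice for these plate-based data, but labels name no mouse and cells cannot be assigned to mice. Each age was therefore handled as 1 sample, differences between ages have no replicate check, and no p-value is given. Levels are CPM, a gene's counts in 1000000 counts of nuclear genes, from counts summed over the cells of an age, and ratios of old over young are log2 values after adding 1 CPM to each. Intervals are exact 95% intervals, Poisson for a level, conditional binomial for a ratio and Clopper-Pearson for a share of cells. They cover counting error only, because reads of amplified cDNA without molecular identifiers are not independent molecules. A gene is called past the fold when its log2 ratio is at least 1 in size. A cell is said to carry a gene at 10 CPM or more. The top cell of an age is the one that holds most of its counts of a gene, and where a value is given without the top cell of either age, both such cells were left out.

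Sca-1+ stromal cells of the endosteum surround small arteries, give rise to bone-forming and cartilage-forming cells and make much of the matrix around them. Stromal cells also secrete signals that hold and instruct blood stem cells, among them chemokines, growth factors and inflammatory cytokines. Complement, a cascade of plasma proteases and their regulators, is made by fibroblastic stromal cells as well as by the liver, and its genes respond to inflammatory cytokines.

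Old cells held a median of 703594 counts (range 171409 to 1126350) and young cells 608696 (108884 to 903730). Mitochondrial genes took a median of 1.28% of counts in old and 1.44% in young cells, and a median of 6680 and 5982 genes had a count (5038 and 4607 after thinning each cell to 100000 nuclear counts). Library numbers formed 3 runs set apart by gaps of more than 200, each with both ages. The first run, below 19000, held 19 old and 20 young cells. The second and the third run, both from 19000, held 20 old with 20 young and 20 old with 19 young cells. Within a run the ages held separate blocks of numbers, so age and block cannot be told apart. No pair of cells had identical counts.

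Genes of the sort markers were found in most cells. *Ly6a*, the gene of Sca-1, was carried by 58 of 59 old and 56 of 59 young cells, *Pdgfra*, a mesenchymal receptor, by 57 and 52, and *Itgav*, the gene of CD51, by 48 and 46. The gene of CD31, *Pecam1*, was carried by 0 old and 2 young cells, and *Ptprc*, the gene of CD45, had no count in old cells and 1 count in young cells. Of 18 genes of Sca-1+ stromal identity, among them *Cd34*, *Pi16*, *Dpp4*, *Clec3b* and *Dcn*, 0 were past the fold, where 8.65% of all genes tested were on the higher and 11.1% on the lower side, and their median log2 ratio was -0.04. The 17 hematopoietic marker genes summed to 9.27 CPM in old and 14.8 CPM in young cells, with most counts from *Plek*, 6 of them at 0 in old and 8 in young cells, and no cell carried more than 2 of them. Only *Plek* and *Lyz2* of these were tested, and *Lyz2* was past the fold on the lower side (log2 -1.03, and -0.76 without the top cell of either age). Erythroid genes summed to under 1 CPM at both ages (0.434 and 0.955).

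By the cluster numbers in the labels, 53 old and 50 young cells belonged to clusters M6 to M16, which the study calls MSC-S-like, and 6 and 9 to clusters M3 to M5. Cluster M9 held 10 old and 0 young cells, 9 of them in the third run. Cluster M15 held 0 old and 5 young cells. Cluster M16 held 21 old and 14 young cells, of which 17 and 10 were in the second run. All cells of M16 carried the joint lubricant gene *Prg4*, and those with the highest level of each age were among them (57873 CPM over all old and 50938 CPM over all young cells, highest cells 281476 and 289738). Clusters were built by the authors from all genes of these cells, so their makeup is given as a description. The part of this makeup in the differences between ages was not tested.

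Among 13381 genes tested, which held 99.6% of nuclear counts, 1157 (8.65%) were past the fold on the higher side in old MSC-S and 1484 (11.1%) on the lower side. Requiring the fold in library numbers below 19000, in those from 19000 and over all cells left 371 higher (2.77%) and 471 lower genes (3.52%). In single ranges, which hold fewer cells, the shares were larger, with 18.6% higher and 20.1% lower below 19000, and 11.2% higher and 14.0% lower from 19000. Of the 1157 higher genes, 269 had the other sign in a range, as did 342 of the 1484 lower genes. The median log2 ratio of all genes tested was -0.06. Past the fold in each of the 3 runs were 127 genes on the higher side (0.949%) and 141 on the lower (1.05%).

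**Figure D1:**
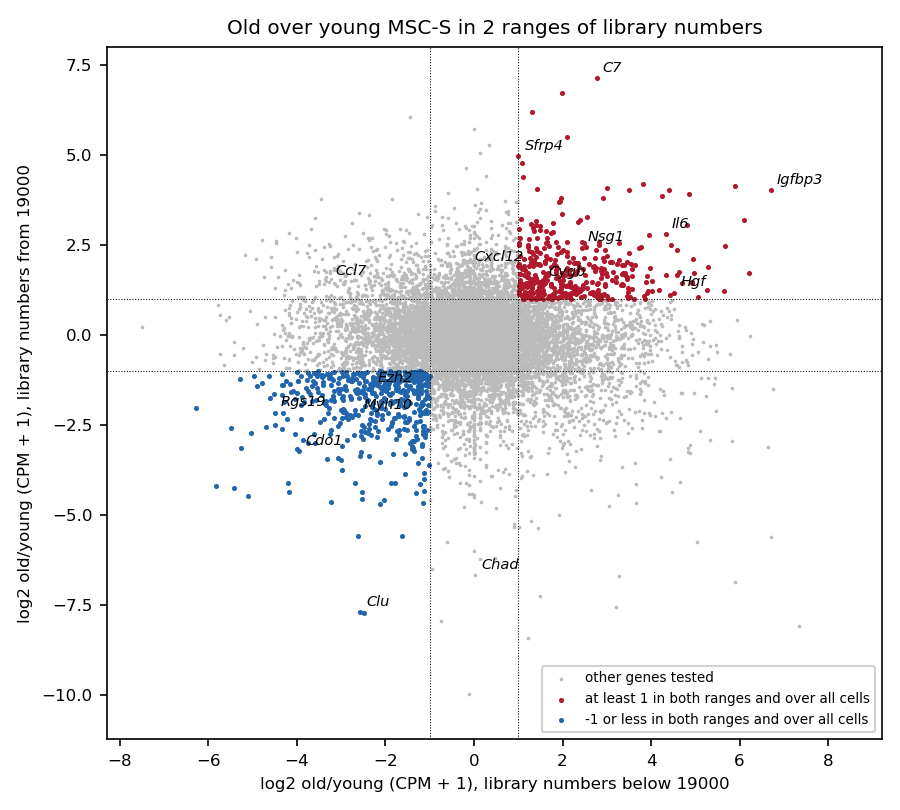
Log2 ratio of old over young MSC-S (CPM + 1) for the 13381 genes tested, in cells with library numbers below 19000 (horizontal axis) and from 19000 (vertical axis), with dotted lines at 1 and -1. Red points are the 371 genes past the fold on the higher side and blue points the 471 genes on the lower side in both ranges and over all cells.

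Of the complement genes tested, 10 were higher and 4 lower in old MSC-S over all cells, where the median of all genes tested was -0.06. Of 17 genes listed, 14 were tested and 9 were past the fold on the higher side over all cells, against 8.65% of all genes. The median log2 ratio of the 14 was 1.15 (0.97 below 19000 and 0.93 from 19000). Its interval over the genes was -0.96 to 2.63, which spans 0. Among the 14, *C1ra*, *C1s1*, *C2*, *C7* and *Cfb* were past the fold on the higher side in both ranges, 5 genes against 2.77% of all genes. Past the fold on the lower side were *Cfd* and *Cd46*, and neither was so in both ranges. In the second run the median of the list was -0.46, below 0, and in the third run 0.73. Medians of all genes tested in these runs were -0.11 and 0.05. All 17 genes together summed to 8360.2 against 4382 CPM.

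*Serping1*, the inhibitor of the C1 complex, had the most counts of the complement genes, with a median per cell of 4050.3 CPM in old cells (range 5.16 to 53990.0) and 1397 CPM in young cells (0 to 10073). Its summed level was 5567 against 2393 CPM, a log2 ratio of 1.22, which was 0.92 below 19000 and 1.40 from 19000. *C1ra* and *C1s1*, neighboring genes on chromosome 6 (chr6:124512405-124523443 and chr6:124530345-124542359, GRCm38), encode the proteases of the C1 complex. *C1ra* had 203 CPM among old cells (198 to 207), 82.3 CPM among young cells (79.3 to 85.4), and 47 old and 32 young cells carried it. Its ratio was 2.46 (2.36 to 2.57). Within cluster M12 its log2 ratio was -0.27 and that of *Serping1* 0.13, and within M16 they were 1.06 and 1.44. Medians per cell for *C1s1* were 311 CPM in old and 9.53 CPM in young cells, with highest cells at 2365 and 1236, so the ages overlapped and more of the old cells were high. Its log2 ratio was 1.54 over all cells, 1.02 below 19000, -0.36 in the second run and 2.13 in the third.

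*Cfb*, the protease of the alternative pathway, was carried by 17 old and 2 young cells, at 12.2 against 1.13 CPM (ratio 10.8, 7.78 to 15.4). *C2*, its counterpart in the classical pathway and its neighbor on chromosome 17 (chr17:34862604-34898265 beside chr17:34856374-34862518), stood at 39.9 against 2.43 CPM in 13 and 3 cells. Both genes share exons with the annotated gene *Gm20547*, and how reads of shared exons were counted is not stated. *C7*, a component of the membrane attack complex, had log2 ratios of 2.77, 7.31 and 6.93 in the first, second and the third run, yet only 13 old and 5 young cells carried it, and a single young cell held 64.5% of its young counts (log2 3.87 without the top cell of either age). The central component *C3* was past the fold over all cells (559.6 against 262 CPM, log2 1.09), with 1.61 below 19000 and 0.78 from 19000, and 15 old and 15 young cells carried it. *C4b* stood at 688 against 252 CPM (log2 1.44) with ratios of 3.29, -1.29 and 3.06 in the runs, and 1 young cell held most of its young counts (log2 2.42 without the top cell of either age). The counts of *Cfd*, which encodes adipsin, lay almost wholly in 1 young cell (99.8% of its young counts, log2 -9.39 and -1.17 without the top cell of either age), and the log2 ratio of *Cd46* was -0.92 without those cells.

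**Figure D2:**
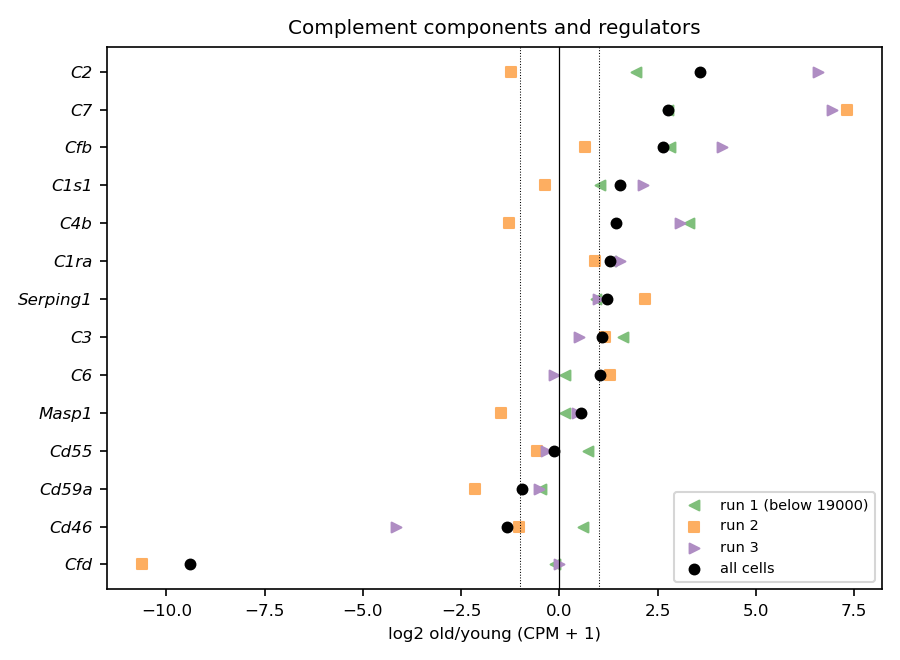
Log2 ratio of old over young MSC-S (CPM + 1) of the 14 complement genes tested, over all cells (black) and in each run of library numbers, with dotted lines at 1 and -1. *C7* lies right of 1 in every run, while 8 of the 14 genes, *C2*, *C4b* and *C1s1* among them, lie left of 0 in the second run. The median of all genes tested in that run was -0.11, also left of 0.

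The inflammatory cytokine gene *Il6* (chr5:30013114-30019981, plus strand) had the largest ratio among genes higher in both ranges with at least 1000 counts and carried by at least 25% of the cells of an age. In old cells it ranged from 0 to 2319.7 CPM with a median of 1.34, and in young cells from 0 to 886 CPM with a median of 0. More old than young cells carried it, 23 (interval of the share 26.5 to 52.6%) against 12 (11.0 to 32.8%). At 100 CPM or more were 18 old and 4 young cells. Its summed level was 307 CPM among old cells (301 to 312) against 32.5 CPM among young cells (30.6 to 34.4), a ratio of 9.45 (8.88 to 10.1) and a log2 ratio of 3.20. In the first, second and the third run the log2 ratio was 4.33, 4.26 and 2.42. A single young cell held 49.4% of the young counts, and without the top cell of either age the log2 ratio was 3.85. Without clusters M9 and M15 it was 2.39, and within cluster M16 it was 3.83. Within M12 it was 0.72, not past the fold, with 3 of 10 old and 4 of 13 young cells carrying *Il6*.

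Other inflammatory genes were less uniform. Of 21 tested targets of NF-kB, the transcription factor downstream of IL-1 and TNF receptors, 6 were past the fold on the higher side (*Nfkbie*, *Tnfaip2*, *Icam1*, *Ccl7*, *Il6* and *Ptgs2*) and 0 on the lower, against 8.65% and 11.1% of all genes. Only *Il6* of the 21 was past the fold on the higher side in both ranges, against 2.77% of all genes. Below 19000, 1 was past the fold on the higher and 9 on the lower side, against 18.6% and 20.1% of all genes there, and from 19000 they were 7 and 0, against 11.2% and 14.0%. Their median log2 ratio was 0.36 over all cells, -0.66 below 19000 and 0.74 from 19000. Of 11 chemokine genes tested, 5 were past the fold on the higher and 1 on the lower side over all cells, against 8.65% and 11.1% of all genes. *Ccl8* and *Cxcl14* were higher and *Cxcl10* lower in both ranges, against 2.77% and 3.52%. *Cxcl14* stood at 372 against 119 CPM and was past the fold in every run. *Ccl8* was carried by 7 old cells and had no count in young cells. With 3 young counts in place of 0 it was at least 185-fold higher over all old cells, a limit for counting error only. Its log2 ratio was 4.09, and 3.07 without the top cell of either age. *Cxcl10* rested on 2 cells of each age and had a log2 ratio of -0.18 without the top cell of either age. *Ccl7* was 1.40 over all cells, -3.28 below 19000 and -6.85 in the second run. *Cxcl1*, the chemokine gene with the most counts, stood at 1219.9 against 956 CPM (log2 0.35).

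Interferon response genes differed by range. Of 25 tested, 3 were past the fold on the higher and 6 on the lower side over all cells, against 8.65% and 11.1% of all genes, with a median of -0.48. Below 19000, 8 were higher and 6 lower, against 18.6% and 20.1% of all genes there, and from 19000, 1 was higher and 10 were lower, against 11.2% and 14.0%. In both ranges 4 were lower (*Ifit3*, *Oasl2*, *Gbp3* and *Xaf1*), against 3.52% of all genes, and *Gbp7* higher, against 2.77%. *Gbp3*, a guanylate-binding GTPase, stood at 1.84 against 22.2 CPM in 3 and 7 cells, and its neighbor *Gbp7* at 52.3 against 11.8 CPM in 13 and 10 cells. Below 19000 the median of the list was 0.18 and from 19000 it was -0.83, and *Oasl2* had -2.52 over all cells and -1.79 without the top cell of either age. Of 15 genes of class I antigen presentation, *H2-T23* and *Psmb9* were past the fold on the higher side, against 8.65% of all genes. *Psmb9*, which shares exons with *Tap1*, was so in both ranges, against 2.77%. Of 12 tested genes of the IL-1 and IL-6 families, *Il6* and *Clcf1* were past the fold on the higher side and *Il33* on the lower. Of all genes, 8.65% and 11.1% were so, and the median of the list was 0.16. *Il1a*, *Il1b*, *Il1rn* and *Tnf* were at or near 0 at both ages, and no cell of either age carried them. *Il1b* had a summed level of 0 CPM in old and 0.0289 CPM in young cells.

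Among genes higher in both ranges, several had a wide gap in the share of cells that carried them. *Wisp2*, a matricellular protein of the CCN family, had a median of 148 CPM in old and 0 in young cells, with ranges of 0 to 2752 and 0 to 2296 CPM. It was carried by 36 old (share 47.4 to 73.5%) and 16 young cells (16.4 to 40.3%). Its summed level was 365 against 82.7 CPM (ratio 4.42, 4.24 to 4.60), and its log2 ratio was 2.15, 2.62 and 1.34 in the runs. Within cluster M16 it was 2.90, with 19 of 21 old and 6 of 14 young cells carrying the gene, and within M12 it was -0.61. Cytoglobin (*Cygb*), a heme protein of fibroblasts, was carried by 50 old and 32 young cells at medians of 122 and 28.8 CPM. Summed, it stood at 339.5 against 122 CPM, and its log2 ratios of 1.53, 1.39 and 1.45 in the runs were close to each other. Without clusters M9 and M15 its log2 ratio was 1.26, and within cluster M12 it was -1.01.

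The endosomal sorting protein gene *Nsg1* (chr5:38137192-38159907, minus strand), which shares exons with *Stx18*, differed by nearly the same ratio in each run. Its levels ran from 0 to 2998 CPM in old cells with a median of 71.3, and from 0 to 656 CPM in young cells with a median of 0. Log2 ratios were 2.44 over all cells, 2.43 below 19000, 2.30 in the second and 2.43 in the third run, and 40 old against 22 young cells carried it. *Igfbp4*, which binds insulin-like growth factors, was similarly even at 1.35, 1.34 and 1.40, with 1561 against 605 CPM and 56 against 45 cells. So was *Fasn*, the fatty acid synthase, at 1.42, 1.05 and 1.35, with 184 against 73.5 CPM. *Hgf*, a growth factor for epithelial and blood cells, was carried by 18 old and 3 young cells (18.3 against 1.91 CPM). *Nifk*, a nucleolar protein, was carried by 32 and 12 cells and *Cmtm7* by 31 and 14. *Pcdhga4* was carried by 14 old and 0 young cells, but its last exons are shared by the whole protocadherin gamma cluster. How reads of shared exons were counted is not stated. Exons of *Cygb*, *C1s1*, *Hgf*, *Cmtm7*, *Kcnt2*, *Ezh2*, *Milr1*, *Wdfy1*, *Pde3a*, *Sertad4* and *C130023A14Rik* also overlap those of other annotated genes.

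Next after *Il6* in size among such genes with at least 1000 counts were ratios that belonged to secreted inhibitors of signaling. *Chrdl1*, an antagonist of bone morphogenetic proteins, stood at 517 against 62.2 CPM (log2 3.04), with 1.98 in the first, -5.68 in the second and 4.83 in the third run. The Wnt antagonist *Sfrp4* stood at 9302 against 1179 CPM (log2 2.98), which was 1.00 below 19000, -1.24 in the second and 5.21 in the third run. Without clusters M9 and M15 it was 0.32, not past the fold. Fibroblast activation protein (*Fap*) stood at 1147 against 212 CPM in 46 and 38 cells, with log2 ratios of 1.63, 3.60 and 0.49 in the runs. Of 87 higher genes that met the minimums of counts and cells, 15 were named for their ratio. *Plekha4* and *Aftph* were named for their share gap alone. The higher genes named for ratio or share gap and not described above were lower in level, between 10.1 and 53.2 CPM in old cells. They were the Wnt5a receptor *Ror2* (log2 2.55), the nuclear pore gene *Ndc1* (2.47), *Fam102a* (2.46), *Fbxo42* (2.31), *Pank4* (2.29), the tubulin tyrosine ligase *Ttl* (2.25), the potassium channel *Kcnt2* (2.22), *Plekha4* (2.09), *Aftph* (1.59), *E130311K13Rik* (2.71), *AI846148* (2.23) and *Fam58b* (2.88).

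Of the 26 genes named for the largest ratios or share gaps on the higher side, 22 were higher in all 3 runs and 15 were past the fold in all 3. Of 23 such genes on the lower side, 22 were lower in all 3 runs and 12 past the fold in all 3. In M12 and M16, the clusters with 10 or more cells from both ages, 23 of the 26 were higher in old cells in M12 and 23 in M16, and 23 and 17 of the 23 were lower. These genes were chosen for being past the fold in the first run, in the second and the third run pooled, and over all cells. Counts within runs and clusters reuse those values and are given as a description.

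**Figure D3:**
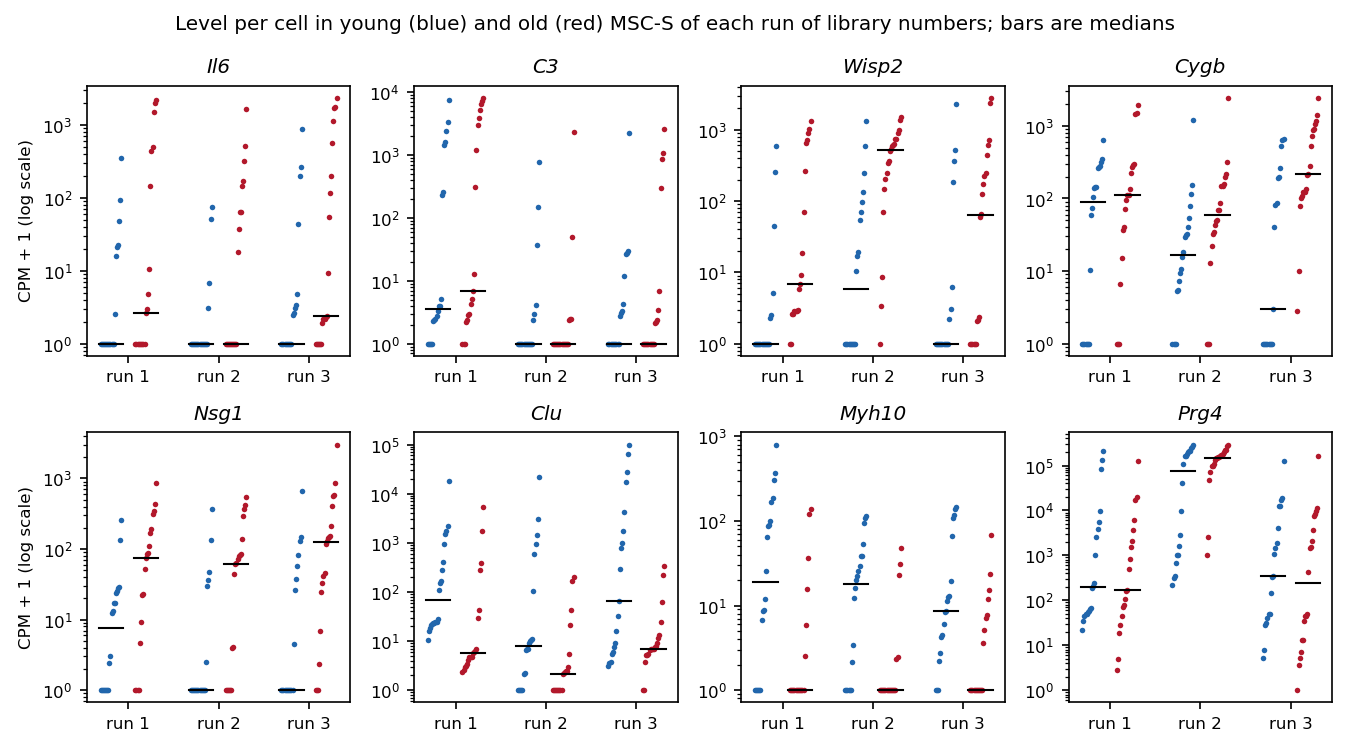
Level per cell (CPM + 1, log axis) of 8 genes in young (blue) and old (red) MSC-S, by run of library numbers, with each group's cells in ascending order and its median as a bar. *Nsg1*, *Wisp2* and *Cygb* have higher old medians in each run, *Clu* and *Myh10* lower ones, and *Prg4* is highest at both ages in the second run.

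On the lower side, clusterin (*Clu*), a secreted chaperone that also inhibits the terminal complement complex, had the largest ratio among genes chosen in the same way. It ranged from 0 to 5440.0 CPM in old cells with a median of 4.33, and from 0 to 99179 CPM in young cells with a median of 23.1. Its summed level was 87.4 CPM in old and 4779.7 CPM in young cells, with young over old at 54.7 (52.9 to 56.6). It was carried by 16 old and 37 young cells, and at 100 CPM or more by 8 and 25. Log2 ratios were -2.57 in the first, -6.19 in the second and -8.24 in the third run, and -5.73 without the top cell of either age. Without M9 and M15 the ratio was -2.91, smaller and still past the fold.

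*Myh10*, the heavy chain of nonmuscle myosin IIB, was lower by nearly the same ratio in each run (-2.63, -2.22 and -2.25). It was carried by 11 old (18.6%, 9.69 to 30.9) and 32 young cells (54.2%, 40.8 to 67.3), with a median of 0 in old and 11.2 CPM in young cells and highest cells at 139 and 795. *Ezh2*, the histone H3 lysine methyltransferase of Polycomb repressive complex PRC2, was carried by 9 old and 25 young cells at 6.84 against 29.4 CPM. Its log2 ratio was -2.32 and -2.61 in the first and second run and -0.02 in the third. *Hoxa10*, a homeobox gene of limb and pelvic patterning, was past the fold in every run (-1.56, -2.28 and -2.54), with 14 old and 21 young cells.

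*Cdo1*, the cysteine dioxygenase, was carried by 3 old and 15 young cells at 4.16 against 43.8 CPM, with young over old at 10.5 (8.94 to 12.4). The scaffold gene *Slc9a3r2* (-2.91), the cadherin-catenin relative *Ctnnal1* (-3.23), *Rgs19*, which shuts off G protein signals (-2.57), *Rbm43* (-2.43), *Milr1* (-2.72), *Cox19* (-1.54) and *C130023A14Rik* (-2.40) were likewise past the fold in each run, and *Ctnnal1* was -4.01 without the top cell of either age. Also lower in both ranges were the netrin and hemojuvelin receptor *Neo1* (58.4 against 140.4 CPM in 29 and 42 cells), the endosomal protein *Wdfy1* (19 and 35 cells), *Mepce*, *Sertad4*, *Gatsl3*, *Zc3hav1l*, *Polr3c*, *2310003H01Rik* and *Nif3l1*, which shares exons with *Orc2* and *Ppil3*. Both cyclic nucleotide phosphodiesterases, *Pde3a* (-2.19) and *Pde4b* (-2.18), were named, but 1 young cell held 61.1% of young *Pde4b* counts. Without the top cell of either age the log2 ratio of *Pde4b* was -0.94, not past the fold, and 35 old and 34 young cells carried it.

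Cartilage genes were lower in old MSC-S over all cells, yet not in both ranges. Of 26 listed genes, 24 were tested and 18 were past the fold on the lower side, against 11.1% of all genes, with a median of -2.02. The median was 0.93 below 19000 and -3.18 from 19000, so the direction of the list turned with the range. Below 19000, cluster M4 held 1 old cell, with 44382 CPM of *Cytl1* and 24105 CPM of *Chad*, and 0 young cells. The part of this cell in the list median there was not tested. *Sox6*, *Trpv4* and *Fgfr3* were past the fold on the lower side in both, against 3.52% of all genes. *Chad*, a leucine-rich matrix protein, was carried by 2 old and 21 young cells, and at 100 CPM or more by 2 and 10. A single old cell with 24105 CPM held most of the old *Chad* counts. Its log2 ratio was 0.02 below 19000, -6.67 from 19000 and -4.37 over all cells (-6.21 without the top cell of either age). The highest young cell, at 33944 CPM, belonged to cluster M15, which held 0 old and 5 young cells. *Cytl1*, *Acan* and *Col2a1* also rested on few cells, with 2, 3 and 1 old and 13, 9 and 3 young cells carrying them. At 100 CPM or more *Cytl1* was in 2 old and 4 young cells. Without the top cell of either age, *Fgfr3* was -1.42, *Acan* -5.20 and *Col2a1* -4.98. *Sox9*, the transcription factor of cartilage formation, was carried by 21 and 29 cells and was lower in each range (-2.65 and -0.98), with -0.96 over all cells without the top cell of either age.

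Bone genes had the same dependence on range. Of 14 osteoblast genes tested, 2 were past the fold on the higher and 5 on the lower side, against 8.65% and 11.1% of all genes, with medians of 1.04 below 19000 and -1.51 from 19000. In both ranges *Smpd3* was higher and *Bglap*, *Bglap2* and *Spp1* lower, against 2.77% and 3.52% of all genes. However, *Smpd3* was -3.60 in the third run and *Bglap* 0.27 in clusters M6 to M16 alone. *Spp1*, which encodes osteopontin, stood at 16.97 against 590.2 CPM, carried by 8 old and 9 young cells (log2 -5.04, and -5.86 without the top cell of either age). Osteocalcin (*Bglap*) was at 3.52 against 9.98 CPM. Of 10 tendon genes *Tnmd*, *Scx*, *Mkx* and *Fmod* were past the fold on the lower side and *Tnc* on the higher, against 11.1% and 8.65% of all genes. In both ranges 0 were so. Without the top cell of either age *Tnmd* (-0.84) and *Fmod* (-0.96) were not past the fold. Of 10 adipogenic genes, 4 were past the fold on the lower side over all cells, against 11.1% of all genes, and 0 in both ranges. A single young cell held 99.5% of young *Adipoq* counts (log2 -4.51, and 0.21 without the top cell of either age).

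**Figure D4:**
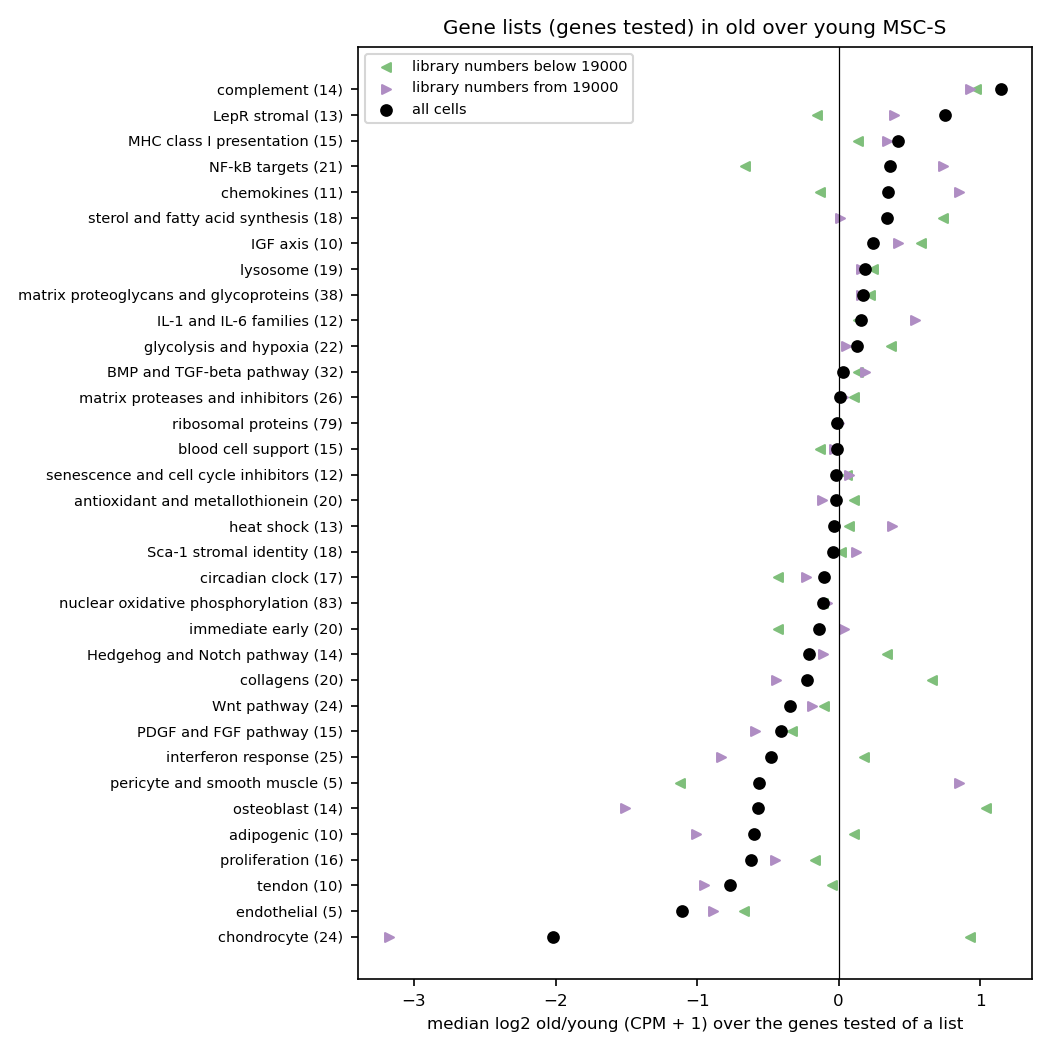
Median log2 ratio of old over young MSC-S (CPM + 1) of the gene lists with at least 5 genes tested (number in brackets), over all cells (black), below 19000 (green) and from 19000 (purple). Complement is highest at 1.15 and chondrocyte genes lowest at -2.02, and the ranges lie on opposite sides of 0 for 12 of the 34 lists, chondrocyte and osteoblast genes among them.

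Genes with which stromal cells support blood cells had a median of -0.01 over 15 tested. *Cxcl12*, the chemokine that retains stem cells, stood at 847 against 297 CPM, but the old median per cell (44.9 CPM) was below the young (102 CPM). A single old cell at 18791 CPM held 47.7% of the old counts, the log2 ratio of 1.51 was 0.77 without the top cell of either age, and it was -0.13 below 19000. *Kitl*, stem cell factor, was at 8.73 against 18.7 CPM (log2 -1.02, with -0.93 and -0.99 in the ranges and -0.99 without the top cell of either age). *Angpt1* was lower in both ranges (-4.31 and -1.38) and was carried by 4 old and 9 young cells. Of 13 genes typical of LepR+ stromal cells of the central marrow, 4 were past the fold on the higher and 3 on the lower side, against 8.65% and 11.1% of all genes, and *Lepr* itself had 1.07 over all cells, 0.95 without the top cell of either age and -1.88 in the second run.

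Signaling pathways differed in the direction of their genes. Of 14 genes tested in the Hedgehog and Notch list, 5 were higher and 9 lower over all cells. Their median was -0.21, against -0.06 for all genes tested. *Gli1* and *Notch1* were past the fold on the higher side and *Hhip* on the lower, against 8.65% and 11.1% of all genes. *Gli1* and *Notch1* were so in both ranges, against 2.77%. *Gli1*, a transcription factor and target of Hedgehog signals, was carried by 17 old and 9 young cells (27.7 against 11.2 CPM). Of 24 Wnt pathway genes, 3 were past the fold on the higher and 6 on the lower side over all cells, against 8.65% and 11.1% of all genes, with a median of -0.34. In both ranges *Sfrp4* and *Wnt5b* were higher and *Wif1* and *Wnt5a* lower, against 2.77% and 3.52% of all genes. *Wif1* had -2.12 over all cells and -3.92 without the top cell of either age. *Wnt5a* stood at 15.6 against 71.5 CPM and was past the fold in every run, while its receptor gene *Ror2* was higher. Of 32 genes of the bone morphogenetic protein and TGF-beta pathways, 5 were past the fold on the higher and 2 on the lower side, against 8.65% and 11.1% of all genes, with a median of 0.03. *Chrdl1* and *Gdf10* were higher and follistatin (*Fst*) lower in both ranges, against 2.77% and 3.52%. Of 10 genes of the insulin-like growth factor axis, the binding proteins *Igfbp3* and *Igfbp4* were higher over all cells and in both ranges, against 8.65% and 2.77% of all genes. However, 1 old cell held 76.9% of old *Igfbp3* counts (log2 5.77, and 4.48 without the top cell of either age). Of 15 genes of PDGF and FGF signaling, 0 were past the fold on the higher side and 4 on the lower, against 8.65% and 11.1% of all genes. *Fgfr3* was past the fold on the lower side in both ranges, against 3.52%.

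Most lists of cell function had medians over all cells near that of all genes, and their counts are to be read against 8.65% higher and 11.1% lower over all cells, and 2.77% and 3.52% in both ranges. Of 79 ribosomal protein genes 0 were past the fold (median -0.01), and of 83 nuclear genes of oxidative phosphorylation 2 were, on the lower side (median -0.11). Among 14 mitochondrially encoded genes tested 0 were past the fold (median -0.09). Of 20 genes tested in the collagen list only *Col15a1* was past the fold, on the lower side (median -0.22, and -0.85 for this gene without the top cell of either age). The collagen genes *Col2a1*, *Col9a2*, *Col9a3*, *Col11a1* and *Col11a2* were counted in the cartilage list instead, where they were past the fold on the lower side. The collagen median turned with the range, from 0.66 below 19000 to -0.44 from 19000. Of 38 matrix proteoglycan and glycoprotein genes 3 were higher and 3 lower, with periostin (*Postn*) lower in both ranges. Among 26 matrix proteases and inhibitors, 5 were higher and 1 lower, and *Mmp3* and *Adamts15* were higher in both ranges, although 1 old cell held 80.9% of old *Mmp3* counts (log2 4.07, and 3.02 without the top cell of either age). Genes past the fold were all on the higher side among immediate early genes (1 of 20, median -0.14), heat shock genes (3 of 13, median -0.03), glycolysis and hypoxia genes (2 of 22, median 0.13) and lysosome genes (1 of 19, median 0.19). None of these lists had a gene past the fold in both ranges. Sterol and fatty acid synthesis had medians of 0.74 below 19000 and 0.01 from 19000 and 3 of 18 genes higher, with *Sqle* and *Fasn* in both ranges, and *Sqle* had 2.17 over all cells and 1.41 without the top cell of either age.

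Of 16 proliferation genes, 5 were past the fold on each side over all cells, against 8.65% and 11.1% of all genes. *Mcm3* and *Ccnd1* were higher and the mitotic cyclins *Ccnb1* and *Ccnb2* lower in both ranges, against 2.77% and 3.52%. Cyclin D1 (*Ccnd1*) was carried by 26 old and 14 young cells, with log2 1.98 over all cells, 1.34 without the top cell of either age and -0.66 in the second run. *Ccnb2* was carried by 2 old and 4 young cells. Without the top cell of either age it was -3.00, *Ccnb1* was -0.85, and 1 young cell held 85.9% of young *Mki67* counts (log2 -4.34, and -2.06 without the top cell of either age). Of 12 genes of senescence and cell cycle inhibitors only *Igfbp3* was past the fold, on the higher side, against 8.65% of all genes. *Cdkn1a*, which encodes p21, was carried by 51 old and 50 young cells (log2 0.37), and no cell of either age carried *Cdkn2a*. Of 20 antioxidant genes, *Hmox1* and *Nqo1* were lower in both ranges, against 3.52% of all genes, and *Hmox1* had -0.29 without the top cell of either age. Of 17 clock genes, *Arntl* and *Cry1* were past the fold on the lower side, against 11.1% of all genes, and *Cry1* was so in both ranges, against 3.52%.

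At least 1 of the hematopoietic, endothelial, Schwann, skeletal muscle, pericyte and smooth muscle markers was carried by 41 old and 52 young cells. Of 12 endothelial markers 5 were tested, of which *Tek*, *Erg* and *Esam* were past the fold on the lower side, against 11.1% of all genes, and *Tek* was so in both ranges, against 3.52%. The 12 summed to 16.9 CPM in old and 71.3 CPM in young cells, of which *Tek* made 1.69 and 43.1. *Tek* was carried by 3 old and 7 young cells, and *Esam* was -0.77 without the top cell of either age. The 9 pericyte and smooth muscle markers summed to 389.5 against 169.4 CPM, of which *Rgs5* made 359.7 and 124. *Rgs5* was carried by 16 old and 12 young cells, with log2 ratios of -2.93 below 19000 and 1.41 from 19000, and *Acta2* was lower in both ranges (1.28 against 17.8 CPM). Schwann cell markers summed to 54.2 against 75.1 CPM with most counts from *S100b*, and of 3 tested *Cdh19* was past the fold on the lower side (log2 -1.17, and -0.20 without the top cell of either age). Skeletal muscle markers summed to 1.91 against 6.05 CPM. Cells with at least 4 markers of such lineages numbered 6 at each age, and without them 429 genes were higher and 529 lower in both ranges. The part of other cell types in single genes was not tested.

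Sex and substrain were not given per cell. At least 1 of 4 Y-linked genes had a count in 55 old and 51 young cells, and *Xist* reached 10 CPM in 1 old and 0 young cells. *Nnt*, a nuclear gene for a mitochondrial protein, carries a deletion in the C57BL/6J substrain. It stood at 15.5 against 38.5 CPM (log2 -1.26, with -1.42 and -0.93 in the ranges) and was carried by 13 and 26 cells. Whether old and young mice differed in substrain cannot be told apart from age here, because labels name no mouse.

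Promoters were read from RefSeq (GRCm38.p6), 250 bases before to 50 after a gene's start in RefSeq. The search was chosen after the values had been seen, and a match is a description of letters, not of binding. The NF-kB consensus, on both strands, was present in 8.46% of 32851 promoters, in 10.4% of those of genes tested, in 7.49% of those of genes higher in both ranges and in 9.77% of those lower. In the same order, the motif TGANTCA was in 7.81%, 5.18%, 6.51% and 4.88%, and GAAA repeated after a gap of any 2 bases was in 3.44%, 2.93%, 3.58% and 3.08%. The 10 complement promoters found were those of 9 of the 14 genes tested (*C1ra*, *C1s1*, *C3*, *C6*, *C7*, *Cd46*, *Cd55*, *Cd59a* and *Cfd*), of which 0 held the NF-kB consensus or TGANTCA, and 2 held the GAAA repeat. The promoter of *Il6* held a match to both the NF-kB consensus and TGANTCA. Promoters of *Il6* (chr5:30012864-30013163, plus strand) and *C1ra* (chr6:124512371-124512670, plus strand) are shown as examples of the inflammatory and the complement group, with these matches in capitals. For *C1ra* the RefSeq start lies downstream of the gene start given above, which is from GENCODE, so most of its window lies inside the gene as GENCODE has it.
Il6: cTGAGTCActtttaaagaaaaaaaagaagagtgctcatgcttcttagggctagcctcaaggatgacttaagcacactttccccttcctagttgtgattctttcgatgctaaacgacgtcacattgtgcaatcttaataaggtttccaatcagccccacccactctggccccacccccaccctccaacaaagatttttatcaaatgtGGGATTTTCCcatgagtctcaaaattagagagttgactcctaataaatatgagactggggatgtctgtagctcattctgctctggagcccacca
C1ra: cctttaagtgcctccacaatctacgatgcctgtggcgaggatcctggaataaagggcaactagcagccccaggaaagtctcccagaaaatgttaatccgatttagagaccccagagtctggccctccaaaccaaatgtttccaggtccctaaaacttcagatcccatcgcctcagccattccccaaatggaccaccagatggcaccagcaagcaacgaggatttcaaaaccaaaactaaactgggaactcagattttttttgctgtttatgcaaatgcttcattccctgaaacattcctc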

How the data were processed

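Single sorted cells were sequenced as full-length cDNA (a Smart-Seq2-based protocol), and the values are integer read counts per gene and cell, as deposited by the authors. Per the study's methods, the authors used GSNAP (2015-09-29) for alignment against the assembly GRCm38.p4, took genes from Ensembl release 81, counted reads by HTSeq without strand, and removed cells with few reads or a high mitochondrial share. Of 661 columns, the 543 of other populations were not used. The table held 46078 gene entries, of which 270 repeated symbols were summed, which left 45771 nuclear and 37 mitochondrial genes.

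Counts were summed over the cells of each age and scaled to 1000000 counts of nuclear genes (CPM). A gene was tested with at least 100 counts in total and a count in at least 5 cells (13381 genes), with a pseudocount of 1 CPM. Levels of genes below this minimum are given as levels only. No test was run.

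Genes were named by a rule with 5 parts. The first part took, in each direction, up to 15 genes with the largest log2 ratio among genes past the fold in both ranges, with at least 1000 counts and carried by at least 25% of the cells of an age. The second part took up to 15 with the largest difference in the share of cells, equal differences being ordered by the size of the log2 ratio. The third took members of 41 gene lists past the fold in both ranges and the 3 with most counts of each list. The fourth took sort markers, and the fifth took cytokine and senescence genes of interest to the study. Not every gene selected is described. Some list members are withheld and are not reported here, and list values were computed without them. Members and lists were chosen with earlier results of these data known, and *C3*, *Cd46*, *Sox9*, *Acan*, *Col2a1*, *Cytl1* and other list members outside the rule were named after their values were seen. Doublets were not called, and cells with at least 4 markers of other lineages were counted instead.

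Alternatives were another pseudocount, filters, scaling, thinning, the mean over cells, leaving out cells or clusters, and single ranges or runs. Code was tested on simulated data and used matplotlib 3.10.9 and scipy 1.17.1 with pandas 2.3.3, under Python 3.11.15 and with numpy 2.4.6.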

Additional observations from a re-analysis of the deposited data

How the results depend on the processing

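No paired analysis was possible because numbers in the labels count cells within a group and name no mouse, so no old mouse can be matched with a young one. Each run holds both ages, and ratios within runs are given without a test. Leaving out M9 and M15, leaving *Prg4* out of the library size, and the second and the third run alone were chosen after seeing the data.

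Of 109 genes named by the rule and past the fold, all 109 kept their direction with the mean over cells, thinning, centering, the smaller pseudocount, without the top cell of either age, without cells carrying other-lineage markers and with *Prg4* left out. In these settings 98 to 109 were still past the fold. Of the 109, 92 were past the fold in both ranges as well. These settings reuse the counts from which the genes were found past the fold, so the numbers are a description. Outside the rule, *Adipoq* turned from -4.51 to 0.21 without the top cell of either age. With clusters weighted equally and without M9 and M15, 107 kept their direction, and in clusters M6 to M16 alone 106 did. The second run alone kept 94, with 66 past the fold, and the third run 102, with 88. Of 39 list medians, 25 kept their direction below 19000, 25 in the second run and 27 in the third.

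Over all cells, 1157 genes were higher and 1484 lower. Higher genes numbered 1776 with clusters weighted equally, 396 with at least 1000 counts, 2493 below 19000 and 2895 in the third run. Lower genes numbered 2390 with clusters weighted equally, 463 with at least 1000 counts, 2692 below 19000, 2397 in the second run and 2634 in the third. In both ranges, 371 were higher, against 140 with at least 1000 counts and 127 past the fold in the 3 runs. Lower in both ranges were 471, against 313 without the top cell of either age in each range, 148 with at least 1000 counts and 141 in the 3 runs. Fewer genes are tested at 1000 counts, and ranges and runs hold fewer cells. Higher genes numbered 1585 in the second run and 2895 in the third, which hold similar numbers of cells. What made the counts in ranges and runs differ was not tested, nor was the cause for the other settings.

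Among genes named by the rule and list medians that were past the fold, some log2 ratios changed sign. Below 19000 these were *Ccl7* (-3.28), *Chad* (0.02), *Cxcl12* (-0.13), *Lyz2* (1.37), *Mki67* (1.93), *Rgs5* (-2.93), *Sparc* (0.46) and the median of the chondrocyte list (0.93). Other genes mentioned turned there too, such as *Acan* (1.21) and *Adipoq* (1.01), as did medians not past the fold, such as that of osteoblast genes (1.04). In the second run these were *C1s1* (-0.36), *C2* (-1.24), *C4b* (-1.29), *Ccl7* (-6.85), *Ccnd1* (-0.66), *Chrdl1* (-5.68), *Fam102a* (-0.39), *Lepr* (-1.88), *Oasl2* (1.92), *Polr3c* (0.18), *Postn* (0.91), *Sfrp4* (-1.24), *Tek* (0.29) and the median of the complement list (-0.46). In the third run they were *Ccnb2* (1.81), *Cxcl10* (3.28), *Nqo1* (0.49), *Smpd3* (-3.60) and *Wnt5b* (-0.51). In clusters M6 to M16 alone they were *Bglap* (0.27), *Cxcl10* (1.74) and *Hmox1* (0.24). *Ccl7* was -1.58 and *Cdh19* 2.20 with clusters weighted equally, and without M9 and M15 they were -2.54 and 1.79. For each of these the cause was not tested.

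Depth limits genes with few counts. The 32390 genes not tested have only levels, and a gene seen in few cells can rest on 1 of them.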
